A study of Mus musculus with 12 samples.

Results

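The ribosomal protein genes are the genes for the protein subunits of the cytosolic ribosome. They were followed in mouse embryonic stem cells of the C57BL/6 strain in which Mphosph8, Tasor or Pphln1, the genes of the HUSH complex, had been knocked out. Members were all genes whose symbol consisted of Rpl, Rps or Rplp, a number and at most a short paralogue suffix, together with Rpsa. Rpl10 and Rpl10l were left out. The rule used names and no measured value, and it found 85 genes among the 57180 listed, 52 of the large and 33 of the small subunit.

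The comparison covered 4 groups of 3 libraries each: Mphosph8-null cells (MP8), Tasor-null cells (Tas), Pphln1-null cells (Pph) and wild-type cells (WT). The labels give neither the alleles nor a clone, passage or culture for any library, so the p-values measure the spread between these libraries, which may be technical. Total RNA was made into libraries with a TruSeq kit, and totals ranged from 17918770 to 21962079 estimated counts per library. HUSH consists of TASOR, MPP8 (the product of Mphosph8) and periphilin (the product of Pphln1), and is known to repress transposable elements and newly integrated DNA by directing H3K9 trimethylation to them.

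Ribosomal RNAs and ribosomal proteins are needed in matched amounts, and most ribosomal protein genes share features that keep their output together. Their mRNAs usually begin with a 5′ terminal oligopyrimidine (TOP) tract, through which LARP1 and the mTOR pathway control their translation and stability, and their promoters often hold sites for factors such as GABPA and YY1. Proteins of the large subunit such as RPL5 and RPL11 that are not built into ribosomes can bind MDM2 and so stabilize p53. In proliferating cells these genes are among the most highly transcribed.

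The labels were checked against the targeted genes first. Mphosph8 had 0.705, 0.165 and 0.0494 CPM (counts scaled to a common effective library size) in MP8 libraries, against 110 to 117 CPM in WT libraries. Tasor had 30.7, 31.8 and 33.1 CPM in Tas libraries, against 125 to 130 CPM in WT libraries. Pphln1 had 19.8, 23.1 and 20.9 CPM in Pph libraries, against 67.0, 66.7 and 71.9 CPM in WT libraries. Each targeted gene was thus far below WT in its own null group, although reads of Tasor and Pphln1 remained. The targeted genes also differed from WT in the other null groups by the edgeR test used below. Tasor was called higher in MP8 and Pph (log2 fold changes 0.34 and 0.56), and Pphln1 in MP8 and Tas (0.32 and 0.13). Mphosph8 was called lower in Tas and Pph (-0.22 and -0.27). Embryonic stem cell markers (10 genes, among them Pou5f1, Sox2 and Nanog) summed to 4710 to 4790 TPM (levels per transcript length) in MP8, 4839 to 4905 TPM in Tas, 4491 to 4506 TPM in Pph and 4936 to 5285 TPM in WT. By the edgeR test used below, 7 were called lower and 2 higher in MP8 (median log2 fold change -0.31). In Tas 5 were lower and 2 higher (-0.090), and in Pph all 10 were lower (-0.37). Of all tested genes, 32.2% were called lower and 30.0% higher in MP8, 25.5% and 26.2% in Tas, and 25.7% and 30.6% in Pph. Trophectoderm markers (6 genes) summed to 767 to 790 TPM in Pph, against 75.7 to 79.5 TPM in WT, and to 94.8 to 98.9 TPM in MP8 and 56.0 to 56.3 TPM in Tas. Krt8 (380 TPM in Pph, against 36.9 TPM in WT) and Krt18 (367 TPM in Pph, against 36.9 TPM in WT) made up most of the Pph sum. Hand1 averaged 31.0 TPM in Pph, against 2.50 TPM in WT, and Gata3 1.69 TPM in Pph, against 0.347 TPM in WT. Cdx2 averaged 1.69 TPM in Pph, against 0.167 TPM in WT, and Elf5 0.173 TPM in Pph, against 0.320 TPM in WT. Of the 5 tested trophectoderm markers, 5 were called higher and 0 lower in Pph (median log2 fold change 3.16) and in MP8 (0.72). In Tas 0 were higher and 3 lower (-0.48). None of the 6 trophectoderm genes was at 0 in all libraries of a group. Fibroblast markers (8 genes) summed to at most 27.0 TPM, endoderm markers (5 genes) to at most 2.32 TPM and blood markers (4 genes) to at most 1.17 TPM in any library, and 5 neural markers to 145 to 168 TPM. Of 6 tested fibroblast markers, 5 were called higher and 0 lower in Pph (median log2 fold change 1.65). In MP8 3 were higher and 0 lower (0.42), and in Tas 1 was higher and 3 lower (-0.26). Of 2 tested endoderm markers, 2 were higher in MP8 (1.24) and 0 were called in Tas or Pph. Of the 5 neural markers, 4 were called higher and 1 lower in MP8 (median log2 fold change 0.71). In Tas 2 were higher and 0 lower (0.064), and in Pph 1 was higher and 3 lower (-0.14). The part of these markers in the changes below was not tested, and in bulk RNA fewer cells of a type and less RNA per cell cannot be told apart.

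Ribosomal protein mRNAs were abundant in all 4 groups. The median member had 1905 TPM in MP8, 1958 TPM in Tas, 1889 TPM in Pph and 2172 TPM in WT, and at least 1000 TPM was reached by 63 members in MP8, 64 in Tas, 61 in Pph and 63 in WT. Averaged over all 12 libraries, Rpl23a (6527 TPM), Rpl13a (5965 TPM) and Rplp1 (5860 TPM) had the highest levels per length. At the other end, 4 members in each group stayed under 100 TPM. These were Rpl39l (0.762 TPM over all libraries), a testis-enriched paralogue of Rpl39, Rpl3l (0.607 TPM), a muscle paralogue of Rpl3, Rpl6l (0.0283 TPM) and Rpl32l, which had 0 counts in every library, a level that 3 counts per library would bound. Rpl6l and Rpl32l did not pass the filter on low counts, so 83 members were tested. GENCODE M21, matched by Ensembl ID, lists Rpl32l, Rpl6l and Rps12l1 as processed pseudogenes and Rps4l as a transcribed processed pseudogene, and reads of these 4 can be shared with their parent genes.

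The members took up a smaller share of the counts in every null library than in any WT library. The share was 5.42 ± 0.0780% in MP8, 5.63 ± 0.0431% in Tas and 5.14 ± 0.181% in Pph, against 6.18 ± 0.252% in WT (SD, n = 3 each). The lowest WT library stood at 5.89% and the highest null library at 5.67%. With 3 libraries against 3, an exact permutation test could not go below p = 0.1, so these shares are given without a test. As a share of the listed TPM, the members held 17.99 ± 0.147% in MP8, 18.3 ± 0.0737% in Tas and 17.1 ± 0.501% in Pph, against 18.9 ± 0.373% in WT. Large subunit mRNAs summed to 1.33 ± 0.00384 times the small subunit TPM in MP8, 1.37 ± 0.00543 times in Tas and 1.40 ± 0.0105 times in Pph, against 1.37 ± 0.00769 times in WT.

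Most tested members were lower in MP8 and Pph cells than in WT, and 48 of the 83 tested members were lower in Tas cells. A member was called higher or lower where edgeR's quasi-likelihood test gave a Benjamini-Hochberg adjusted p under 0.05 over all 16840 tested genes. In MP8, 75 of 83 tested members were lower and 2 higher than in WT, where 32.2% of all tested genes were called lower and 30.0% higher. In Tas, those 48 were lower and 3 higher, where 25.5% of all tested genes were called lower and 26.2% higher. In Pph, 82 were lower and 0 higher, where 25.7% of all tested genes were called lower and 30.6% higher.

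The shifts were small. The median log2 fold change of the members was -0.24 in MP8 (quartiles -0.31 and -0.19), -0.12 in Tas (quartiles -0.16 and -0.081) and -0.35 in Pph (quartiles -0.42 and -0.29). Over all tested genes the medians were -0.016 in MP8, -0.011 in Tas and 0.039 in Pph, and the quartiles of all genes in MP8 were -0.32 and 0.35. As percentages, the median member changed by -15.1% (MP8), -7.74% (Tas) and -21.7% (Pph). The 3 null libraries lay wholly below the 3 WT libraries for 73 members in MP8, where 34.1% of all tested genes did so. The same held for 44 members in Tas, against 28.9% of all genes, and for 80 members in Pph, against 27.1% of all genes. All these comparisons share the same WT libraries.

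**Figure D1:**
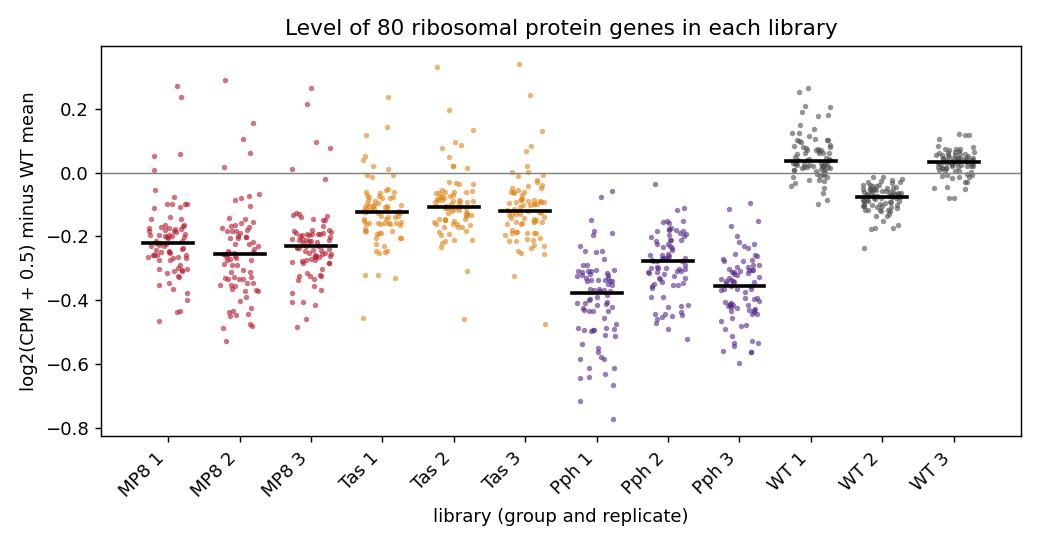
Level of 80 ribosomal protein genes in each library, as log2(CPM + 0.5) minus the mean of the WT libraries for the same gene (points, 1 per gene; black bars, median over genes; Rpl3l, Rpl39l and Rps12l1 are left out). The bars of the 9 null libraries lie below those of the 3 WT libraries, lowest in Pph, and the bar of WT replicate 2 lies below those of WT replicates 1 and 3.

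Library by library, the median member stood at -0.22, -0.26 and -0.23 in MP8, at -0.12, -0.11 and -0.12 in Tas and at -0.38, -0.28 and -0.36 in Pph, relative to the WT mean on the log2(CPM + 0.5) scale. The WT libraries themselves stood at 0.031, -0.074 and 0.033. WT replicate 2 was therefore the low one of its group, with 80 of 83 members below the WT mean, and Pph replicate 2 the high one of its own. The smaller shift in Tas depended on which WT library was kept. The count of members lower in Tas was 30 without WT replicate 3 and 59 without WT replicate 2, with 4 and 1 members higher. Leaving out any single library left 71 to 76 members lower in MP8 and 79 to 82 lower in Pph.

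The scale on which expression was expressed changed the size of the shift. On log2(TPM + 1), tested with limma, the median member changed by -0.13 (MP8), -0.077 (Tas) and -0.18 (Pph), where all tested genes had medians of 0.058, 0.021 and 0.13. The listed TPM of a library summed to about 960279 in MP8, 971670 in Tas, 980538 in Pph and 989574 in WT, so TPM were not on quite the same footing across groups. In the authors' deposited tables, adjusted p-values under 0.05 marked 74 members as lower and 2 as higher in MP8, 50 and 2 in Tas, and 81 and 0 in Pph.

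Genes of both subunits were lower. Of 50 tested large subunit genes, 46 were lower in MP8, 29 in Tas and 50 in Pph, with medians of -0.26, -0.11 and -0.34. Of 33 tested small subunit genes, 29 were lower in MP8, 19 in Tas and 32 in Pph, with medians of -0.22, -0.13 and -0.37. Across genotypes, 45 members were called lower in all 3 null groups, where 8.66% of all tested genes were, and another 28 were lower in MP8 and Pph but not called in Tas, where 5.58% of all tested genes were. The remaining 10 members had other patterns. Among them, Rpl15 and Rps24 were higher in MP8 and lower in Tas and Pph. Rps4l was higher in Tas and lower in MP8 and Pph, and Rpl12 was higher in Tas, lower in Pph and not called in MP8. Rpl24 was lower in Tas and Pph and not called in MP8, and Rpl35a, Rps13 and Rps29 were called lower in Pph and not called in MP8 or Tas. Rps12l1 was called in none, with levels that were uneven within every group (8.40, 8.19 and 21.3 CPM in MP8, 8.71, 26.9 and 22.9 CPM in Tas, 13.5, 15.6 and 8.47 CPM in Pph, and 25.3, 19.7 and 9.03 CPM in WT).

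**Figure D2:**
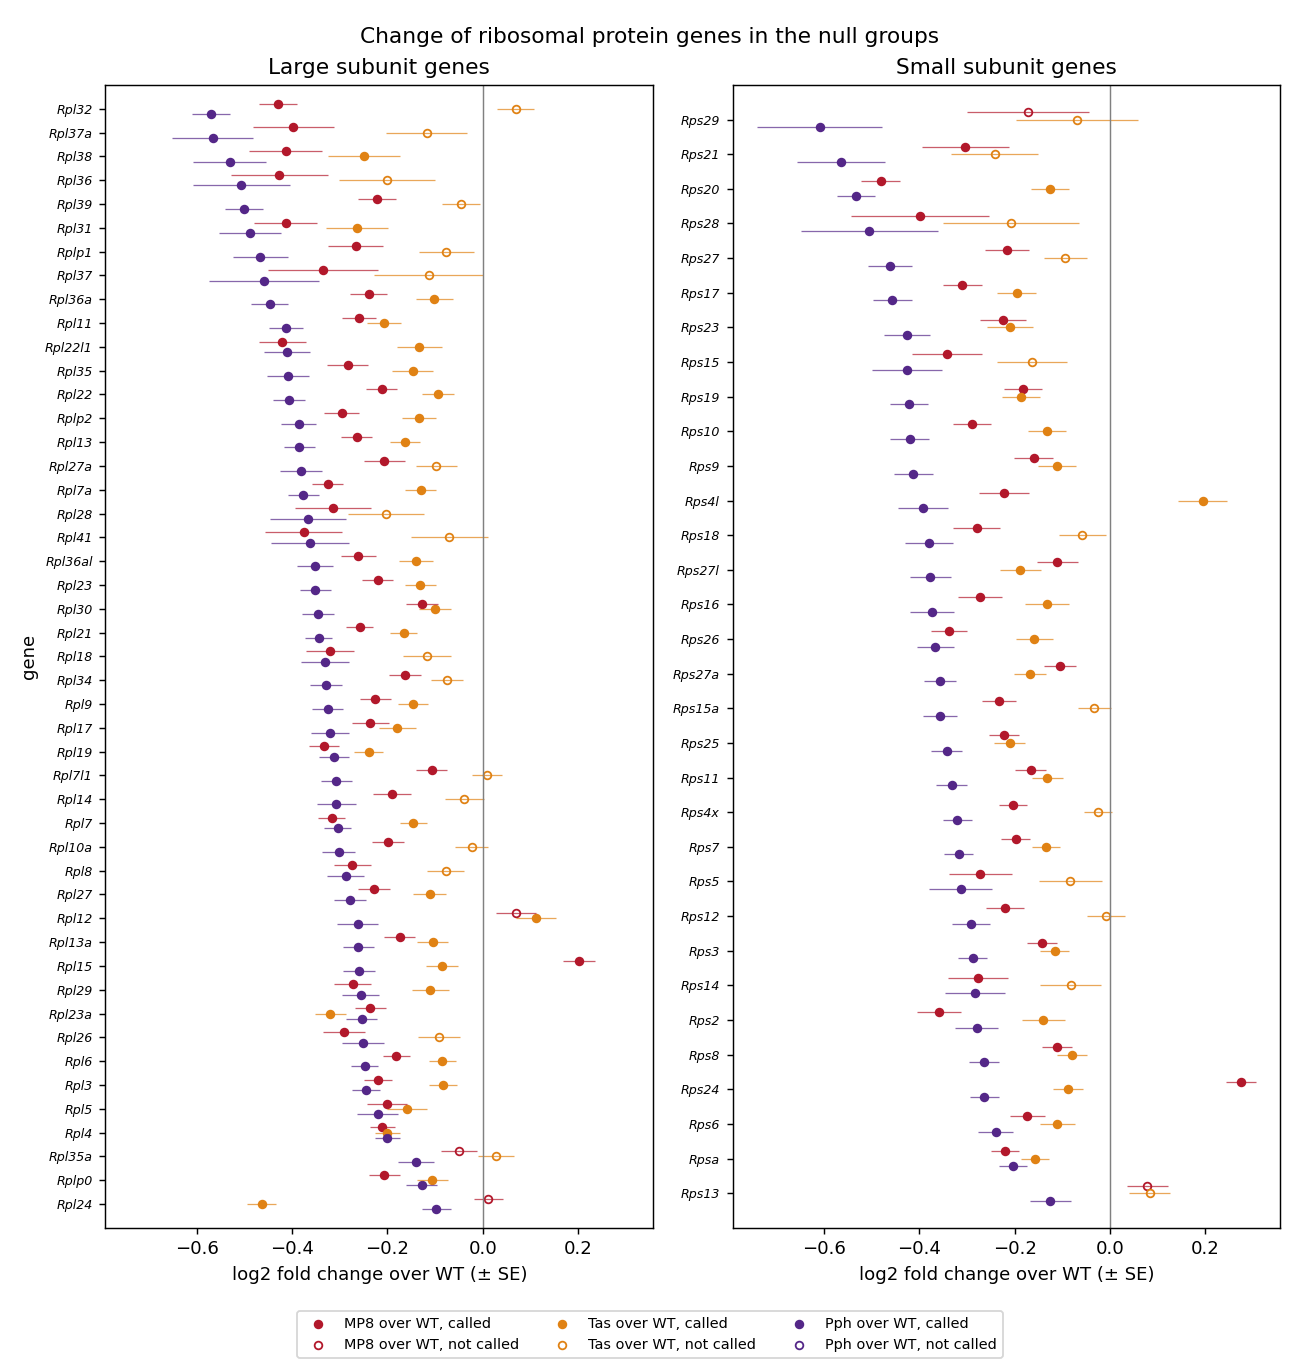
Log2 fold change over WT of 79 ribosomal protein genes in MP8, Tas and Pph cells (points, filled where called at an adjusted p under 0.05; bars, ± SE of the edgeR fit), ordered by the change in Pph. Most members lie left of 0 in all 3 null groups, with Rps24 and Rpl15 right of 0 in MP8 and Rps4l right of 0 in Tas.

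The start regions of the genes at the centre of these patterns are shown because the members moved together and most are known TOP genes. RefSeq (GRCm38.p6) held a promoter for 62 of the 85 members. Of these, 28 (45.2%) had a run of at least 8 C or T on the sense strand that reached within 10 bases of the start, against 13.5% of 27025 promoters. Part of such a run could lie further out, and a run could lie wholly before the listed start. The windows below run 5′ to 3′ from 60 bases before to 25 bases from the start, with the longest such run in capitals where it reached 8 bases. Rpl15 and Rps24 rose in MP8, Rpl24 fell furthest in Tas, Rpl19, Rpl31 and Rpl38 were lower in all 3 null groups, Rpl22l1 is a paralogue of Rpl22, and Rpl3l is nearly silent here.
Rpl15: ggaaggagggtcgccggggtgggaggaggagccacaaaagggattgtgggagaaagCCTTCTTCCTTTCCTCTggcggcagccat
Rps24: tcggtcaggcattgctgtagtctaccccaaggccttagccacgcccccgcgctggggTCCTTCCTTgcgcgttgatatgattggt
Rpl24: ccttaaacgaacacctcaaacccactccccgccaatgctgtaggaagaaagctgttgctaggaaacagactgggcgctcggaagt
Rpl19: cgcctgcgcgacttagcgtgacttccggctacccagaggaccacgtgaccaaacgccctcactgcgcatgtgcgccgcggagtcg
Rpl31: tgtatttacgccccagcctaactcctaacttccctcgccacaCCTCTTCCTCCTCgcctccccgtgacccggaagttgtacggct
Rpl38: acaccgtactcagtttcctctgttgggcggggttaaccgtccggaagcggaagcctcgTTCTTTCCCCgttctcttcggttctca
Rpl22l1: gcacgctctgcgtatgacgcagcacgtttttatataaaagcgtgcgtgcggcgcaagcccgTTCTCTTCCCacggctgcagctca
Rpl3l: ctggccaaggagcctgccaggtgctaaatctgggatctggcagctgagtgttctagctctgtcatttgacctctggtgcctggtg
Rpl15 lies at chr14:18270962-18271046 (minus strand), Rps24 at chr14:24490618-24490702 (plus strand), Rpl24 at chr16:55966215-55966299 (plus strand), Rpl19 at chr11:98026650-98026734 (plus strand), Rpl31 at chr1:39367791-39367875 (plus strand), Rpl38 at chr11:114668520-114668604 (plus strand), Rpl22l1 at chr3:28805448-28805532 (plus strand) and Rpl3l at chr17:24727766-24727850 (plus strand). A long pyrimidine run stood at or near the start both of the pair that rose in MP8, Rpl15 and Rps24, and of Rpl31, Rpl38 and Rpl22l1, which fell there. That of Rpl31 began 18 bases before the listed start and ended before it. None reached 8 bases at the listed starts of Rpl24, Rpl19 and Rpl3l. Over the 300-base promoters and both strands, CCGGAAG, a GABPA motif, stood in 24 of the 62 (38.7%, against 9.12% of all promoters) and AAGATGGC, a YY1 motif, in 5 (8.06%, against 2.88%). CACGTG, an E-box, stood in 5 (8.06%, against 7.24%) and TATAAA in 7 (11.3%, against 14.2%). Each motif was searched on its own, and matches can share end letters (AAG in CCGGAAG and AAGATGGC, for example). A match or its absence says nothing of binding.

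Rps24 and Rpl15 were the members that went against the trend in MP8. Rps24, a small subunit protein needed for processing of the small subunit rRNA and mutated in some patients with Diamond-Blackfan anaemia, had 1109, 1125 and 1103 CPM in MP8, 869, 863 and 862 CPM in Tas and 761, 757 and 780 CPM in Pph, against 947, 866 and 945 CPM in WT. The 3 MP8 libraries lay above all others and the 3 Pph libraries below all others. The log2 fold change over WT was 0.27 ± 0.03 in MP8 (SE; adjusted p = 6.04e-09, edgeR) and -0.26 ± 0.03 in Pph (adjusted p = 1.96e-08). In Tas it was -0.09 ± 0.03 (adjusted p = 0.0175), with 1 WT library between the Tas libraries, and this call was lost without Tas replicate 2 or 3 or WT replicate 1 or 3 (-0.086 to -0.063). Rpl15, a large subunit protein, had 948, 896 and 934 CPM in MP8, 750, 751 and 774 CPM in Tas and 642, 711 and 664 CPM in Pph, against 810, 789 and 816 CPM in WT. Its groups overlapped in none of these comparisons. The log2 fold change was 0.20 ± 0.03 in MP8 (adjusted p = 4.17e-06), -0.09 ± 0.03 in Tas (adjusted p = 0.0298) and -0.26 ± 0.03 in Pph (adjusted p = 8.05e-08). The Tas value was not called without Tas replicate 1 or 2 or WT replicate 1 or 3 (-0.078 to -0.076).

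Both genes lie on chromosome 14, and they are the 2 members there. The median log2 fold change of the 392 chromosome 14 genes with at least 5 CPM was -0.14 in MP8. Of the 20 nearest such genes that are not members (10 on each side in GENCODE M21), 14 were called higher and 1 lower in MP8 around Rpl15, with a median of 0.37. Around Rps24, 11 were higher and 7 lower, with a median of 0.14. Of all tested genes, 30.0% were higher and 32.2% lower in MP8, so the share lower around Rps24 was near that of all genes. The neighbours had at least 5 CPM, while the shares of all tested genes include genes below that level. In Tas, the 20 genes around Rpl15 had 2 higher and 12 lower, and in Pph 6 higher and 8 lower. The 20 around Rps24 had 5 higher and 7 lower in Tas, and 6 higher and 8 lower in Pph. The neighbours were looked at after the values of the 2 members had been seen, and their part in the result was not tested.

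Rps4l went the other way in Tas. Rps4l, a retrocopy of the X-linked Rps4x, had 382, 396 and 410 CPM in Tas, 308, 279 and 302 CPM in MP8 and 246, 289 and 256 CPM in Pph, against 351, 336 and 351 CPM in WT. No Tas library overlapped WT, nor did any MP8 or Pph library. Its log2 fold change was 0.19 ± 0.05 in Tas (adjusted p = 0.00547), -0.22 ± 0.05 in MP8 (adjusted p = 0.00170) and -0.39 ± 0.05 in Pph (adjusted p = 1.16e-05). Of the 18 nearest genes of Rps4l, on chromosome 6, 14 were higher and 0 lower in Tas (median 0.39), 7 higher and 1 lower in MP8 (0.13) and 9 higher and 3 lower in Pph (0.15), although Rps4l itself was lower in MP8 and Pph. Of all tested genes, 26.2% were higher and 25.5% lower in Tas, 30.0% and 32.2% in MP8, and 30.6% and 25.7% in Pph. These neighbours too had at least 5 CPM, unlike all tested genes, and their part in the result was not tested.

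Rpl24 carried the largest called fall of any member in Tas. This large subunit protein, the gene mutated in the Belly spot and tail mouse, had 543, 542 and 536 CPM in Tas, 749, 755 and 750 CPM in MP8 and 715, 686 and 689 CPM in Pph, against 767, 709 and 761 CPM in WT. The Tas libraries lay well below all the rest, and the MP8 libraries fell within the WT range. The log2 fold change was -0.46 ± 0.03 in Tas (adjusted p = 8.31e-14), 0.01 ± 0.03 in MP8 (adjusted p = 0.768) and -0.10 ± 0.03 in Pph (adjusted p = 0.00751). The Pph call was lost without WT replicate 1 (-0.072), and on the TPM scale it was 0.079. Chromosome 16 genes (354 with at least 5 CPM) had a median of 0.10 in Tas, 0.24 in MP8 and 0.20 in Pph. Of the 20 nearest genes of Rpl24, 8 were higher and 9 lower in Tas, 15 higher and 2 lower in MP8, and 17 higher and 0 lower in Pph. Of all tested genes, 26.2% were higher and 25.5% lower in Tas, 30.0% and 32.2% in MP8, and 30.6% and 25.7% in Pph. Rpl12, a protein of the stalk base, was also higher in Tas, with 78.1, 79.1 and 76.4 CPM in Tas, 74.6, 75.2 and 77.0 CPM in MP8 and 58.8, 59.5 and 61.9 CPM in Pph, against 72.3, 69.1 and 74.8 CPM in WT. Its Tas value of 0.11 ± 0.04 (adjusted p = 0.0249) was not called without Tas replicate 1 or 2 or WT replicate 2 (0.084 to 0.11), nor with DESeq2, library totals or upper quartile scaling (lowest value 0.063). In Pph it was -0.26 ± 0.04 (adjusted p = 4.86e-06). The 20 nearest genes of Rpl12 had 7 higher and 7 lower in Tas (median -0.00067), 6 higher and 12 lower in MP8, and 8 higher and 3 lower in Pph. The neighbours of Rpl24 and Rpl12 had at least 5 CPM, unlike all tested genes, and their part in these results was not tested.

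**Figure D3:**
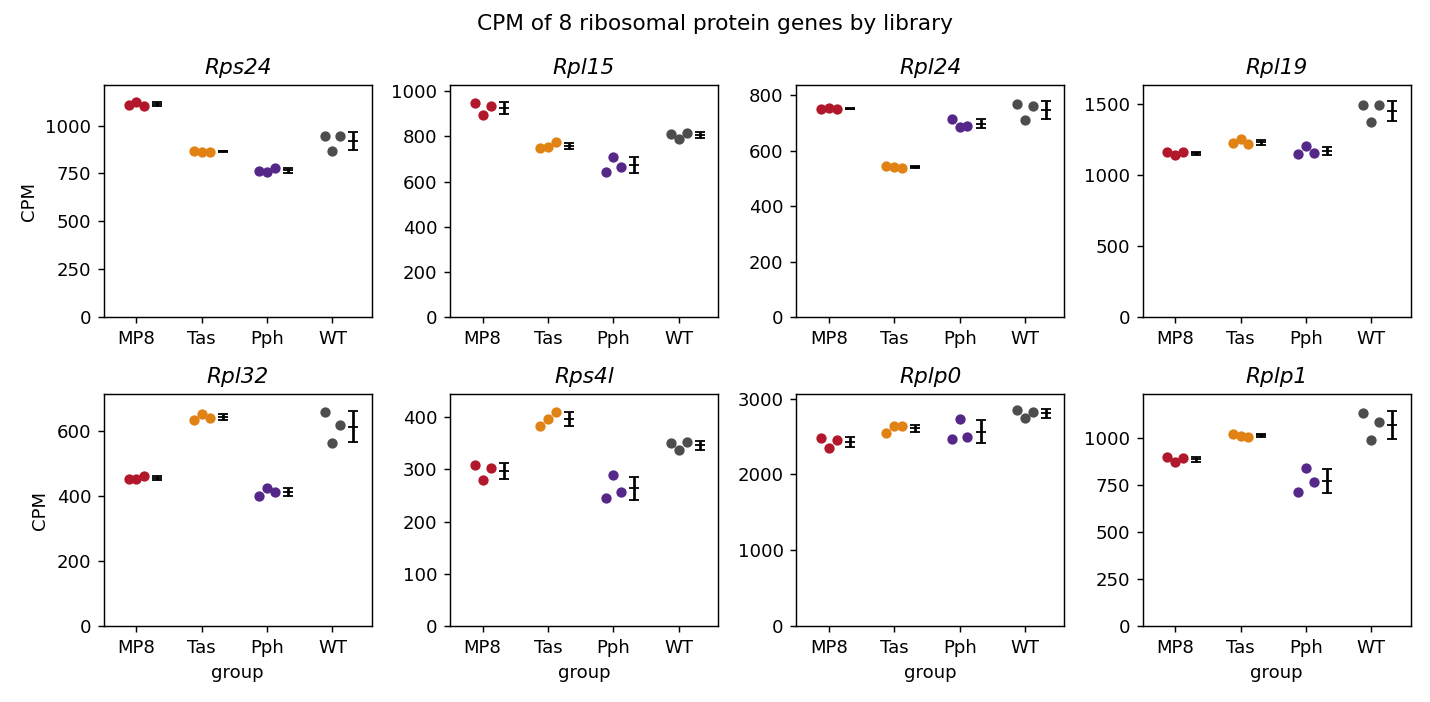
CPM of 8 ribosomal protein genes in each library (points, replicates 1 to 3 from left to right within a group; black bars, mean ± SD, n = 3). Rps24 and Rpl15 stand highest in MP8, Rpl24 lowest in Tas, Rps4l highest in Tas, and Rpl32 low in MP8 and Pph while its Tas libraries lie near WT.

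Among the members that fell in MP8 and Pph, the largest called falls outside Rpl3l and Rpl39l were in Rps20, Rpl32, Rpl36 and Rpl22l1 in MP8 and in Rps29, Rpl32, Rpl37a and Rps21 in Pph. Rpl32, a large subunit protein, had 451, 453 and 462 CPM in MP8, 635, 653 and 641 CPM in Tas and 400, 426 and 414 CPM in Pph, against 658, 564 and 618 CPM in WT. MP8 and Pph libraries lay far below WT, while the Tas libraries lay among the WT libraries. The log2 fold change was -0.43 ± 0.04 in MP8 (adjusted p = 2.31e-09), -0.57 ± 0.04 in Pph (adjusted p = 2.44e-11) and 0.07 ± 0.04 in Tas (adjusted p = 0.152). Without WT replicate 1 the Tas value was 0.13 and called.

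Rps20, a small subunit protein on the head of the subunit, had 467, 460 and 461 CPM in MP8, 596, 599 and 581 CPM in Tas and 422, 473 and 445 CPM in Pph, against 681, 601 and 655 CPM in WT. All null libraries lay below all WT libraries, by -0.48 ± 0.04 in MP8 (adjusted p = 4.93e-10), -0.13 ± 0.04 in Tas (adjusted p = 0.0111) and -0.53 ± 0.04 in Pph (adjusted p = 1.25e-10). The Tas value was not called without Tas replicate 3 or WT replicate 1 or 3 (-0.12 to -0.082). Per length the picture was different, with 418 ± 8.08 TPM in MP8, 491 ± 22.9 TPM in Tas and 407 ± 11.4 TPM in Pph, against 440 ± 31.97 TPM in WT, so that the TPM of Tas was above WT. Rps29, a small zinc finger protein of the small subunit, had 115, 143 and 134 CPM in Pph, 183, 168 and 180 CPM in MP8 and 177, 200 and 194 CPM in Tas, against 237, 167 and 193 CPM in WT. WT replicate 1 was high for it, and only Pph lay wholly below WT (-0.61 ± 0.13, adjusted p = 0.00361). Rpl36 (233 ± 3.04 CPM in MP8 and 221 ± 24.7 CPM in Pph, against 313 ± 41.1 CPM in WT), Rpl37a (226 ± 11.7 and 201 ± 14.7 CPM, against 298 ± 35.8 CPM) and Rps21 (188 ± 4.74 and 157 ± 12.1 CPM, against 232 ± 32 CPM) showed the same wide WT spread. The Rps21 call in MP8 (-0.30 ± 0.09) was lost without MP8 replicate 2 (-0.28).

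Of the members called lower in all 3 null groups, Rpl19, Rpl31 and Rpl38 ranked first by the smallest of their 3 falls. Rpl19, which lies at the interface of both subunits, had 1156, 1140 and 1157 CPM in MP8, 1222, 1249 and 1213 CPM in Tas and 1148, 1202 and 1154 CPM in Pph, against 1490, 1370 and 1489 CPM in WT. Its log2 fold change was -0.33 ± 0.03 in MP8, -0.24 ± 0.03 in Tas and -0.31 ± 0.03 in Pph (adjusted p = 1.25e-10, 1.28e-07 and 6.92e-10). Here the Pph value was no lower than that of MP8. Rpl31, next to the tunnel exit, had 288, 268 and 288 CPM in MP8, 297, 323 and 315 CPM in Tas and 249, 292 and 259 CPM in Pph, against 401, 351 and 371 CPM in WT. It changed by -0.41 ± 0.07 (MP8), -0.26 ± 0.07 (Tas) and -0.49 ± 0.07 (Pph). Rpl38, which is known for its part in translation of Hox mRNAs in the mouse embryo, had 202, 192 and 196 CPM in MP8, 219, 222 and 221 CPM in Tas and 173, 192 and 178 CPM in Pph, against 296, 231 and 259 CPM in WT. No null library reached the lowest WT library. It changed by -0.41 ± 0.08 (MP8), -0.25 ± 0.08 (Tas) and -0.53 ± 0.08 (Pph), and the Tas call was lost without Tas replicate 1 or 3 or WT replicate 3 (-0.26 to -0.24). Rps25, a small subunit protein, and Rpl23a, at the tunnel exit, completed the largest falls in Tas. Rps25 changed by -0.21 ± 0.03 in Tas, -0.22 ± 0.03 in MP8 and -0.34 ± 0.03 in Pph. Rpl23a changed by -0.32 ± 0.03 in Tas, -0.24 ± 0.03 in MP8 and -0.25 ± 0.03 in Pph, with 1218 ± 7.58 CPM in Tas, 1291 ± 24.5 CPM in MP8 and 1275 ± 57.2 CPM in Pph, against 1520 ± 67.2 CPM in WT.

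The stalk proteins recruit the translational GTPases to the ribosome, and of their 3 genes all were lower in MP8 and Pph and 2 in Tas. Rplp0, the base of the stalk, had 2485, 2353 and 2451 CPM in MP8, 2545, 2634 and 2637 CPM in Tas and 2468, 2733 and 2493 CPM in Pph, against 2851, 2738 and 2820 CPM in WT. It changed by -0.21 ± 0.03 (MP8), -0.11 ± 0.03 (Tas) and -0.13 ± 0.03 (Pph). The Tas call was lost without Tas replicate 1 (-0.087), and on the TPM scale the Pph change was 0.024. Rplp1 had 897, 872 and 891 CPM in MP8, 1022, 1009 and 1005 CPM in Tas and 712, 840 and 763 CPM in Pph, against 1132, 986 and 1082 CPM in WT. Its change was -0.27 ± 0.06 in MP8 and -0.47 ± 0.06 in Pph, and in Tas -0.08 ± 0.06 (adjusted p = 0.299), or -0.13 and called without WT replicate 2. Rplp2 changed by -0.30 ± 0.04 (MP8), -0.13 ± 0.04 (Tas) and -0.39 ± 0.04 (Pph), with 450 ± 11.1, 503 ± 7.07 and 422 ± 22.5 CPM in these groups, against 552 ± 24.4 CPM in WT. In Pph, the fall of Rplp0 was smaller than those of Rplp1 and Rplp2, a difference between genes that was not tested.

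Of the 7 paralogues of core genes, all 7 were lower in MP8 and in Pph, and 3 were lower and 1 (Rps4l) higher in Tas. Of all tested genes, 32.2% were lower in MP8, 25.7% in Pph and 25.5% in Tas, and 26.2% were higher in Tas. Rpl22l1, whose protein can replace RPL22 and whose mRNA RPL22 is known to repress, had 54.0, 57.1 and 53.1 CPM in MP8, 69.1, 65.8 and 65.4 CPM in Tas and 56.6, 51.9 and 56.7 CPM in Pph, against 74.1, 68.8 and 76.6 CPM in WT. It changed by -0.42 ± 0.05 in MP8 and -0.41 ± 0.05 in Pph. The Tas value of -0.13 ± 0.05 was not called without Tas replicate 2 or 3 or WT replicate 1 or 3 (-0.12 to -0.0995). Rpl22 itself was also lower in all 3 groups. Rps27l, a p53 target in human cells, had 119, 121 and 117 CPM in MP8, 115, 114 and 109 CPM in Tas and 102, 93.9 and 101 CPM in Pph, against 132, 120 and 134 CPM in WT. It changed by -0.11 ± 0.04 (MP8), -0.19 ± 0.04 (Tas) and -0.38 ± 0.04 (Pph). The MP8 libraries overlapped WT, the call was lost without MP8 replicate 1 or 3 or WT replicate 1 or 3 (-0.11 to -0.081), and on the TPM scale the value was 0.029. The MP8 call was also lost with DESeq2, RLE scaling, library totals and a fit of 2 groups. Rpl36al changed by -0.26 ± 0.04 (MP8), -0.14 ± 0.04 (Tas) and -0.35 ± 0.04 (Pph). Rpl7l1 changed by -0.11 ± 0.03 in MP8 (0.034 on the TPM scale), 0.01 ± 0.03 in Tas and -0.31 ± 0.03 in Pph.

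The remaining pair of paralogues had only a few counts per library. Rpl3l had 1, 1 and 3 counts in MP8, 17, 12 and 15 counts in Tas and 5, 3 and 10 counts in Pph, against 13, 17 and 20 counts in WT. Summed over libraries and scaled, MP8 had 0.108 times the WT level (exact 95% interval 0.0337 to 0.270) and Pph 0.392 times (0.215 to 0.683), while Tas libraries overlapped WT. The Pph call was lost without Pph replicate 2 and with DESeq2. Rpl39l had 4, 3 and 2 counts in MP8, 12, 2 and 2 counts in Tas and 0, 1 and 0 counts in Pph, against 13, 15 and 12 counts in WT. Its summed level was 0.244 times WT in MP8 (0.104 to 0.511), 0.425 times in Tas (0.222 to 0.776) and 0.0272 times in Pph (0.000672 to 0.160). Tas replicate 1 stood alone at the WT level, and without it the Tas change was called (-2.62 on the log2 scale of the fit). These intervals cover counting error only.

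Compared directly, the null groups stood in the order Tas, MP8 and Pph, from the highest to the lowest level of the members. In MP8 against Tas, 47 members were lower and 4 higher (median -0.12), where 28.4% of all tested genes were called lower and 27.7% higher. In MP8 against Pph, 46 were higher and 2 lower (median 0.11), where 27.4% of all genes were called higher and 31.4% lower. In Tas against Pph, 74 were higher and 1 lower (median 0.23), where 28.5% of all genes were called higher and 29.3% lower. The single member lower in Tas than in Pph was Rpl24 (541 ± 3.83 CPM in Tas, 697 ± 16.0 CPM in Pph, log2 difference -0.37 ± 0.03, adjusted p = 1.46e-11). In MP8 against Tas, Rpl24 (0.47 ± 0.03, adjusted p = 4.50e-14) and Rps24 (0.36 ± 0.03, adjusted p = 2.32e-11) had the largest called rises, and Rpl3l had the largest called fall. In MP8 against Pph, Rps24 (1112 and 766 CPM, 0.54 ± 0.03, adjusted p = 2.57e-15) had the largest called rise besides Rpl39l, and the pair lower in MP8 was Rpl3l and Rplp0. For Rplp0 that difference was -0.08 ± 0.03 (adjusted p = 0.0426), the libraries overlapped, and it was not called without MP8 replicate 2 or 3 or Pph replicate 2 (-0.083 to -0.031). The Rpl39l and Rpl3l calls in MP8 against Pph rest on few counts and were lost with DESeq2. Rpl39l was also not called without MP8 replicate 1 or 2 or Pph replicate 1 or 3 (2.32 to 2.73). Rpl3l was not called without MP8 replicate 1 or 2 or Pph replicate 3 (-1.58 to -1.23). On library totals without further scaling, 26 members were lower in MP8 than in Tas, with a median of -0.067.

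Members with a shorter listed gene length had a larger spread between libraries and a larger fall in Pph. In MP8 the fall was smallest among the longest members, and in Tas it hardly differed by length. How far the listed length matches that of the mRNAs was not tested. By the gene length of the deposited tables, the 21 members under 600 bases had a median within-group SD of 0.071 (log2), against 0.055 for the 34 members of 600 to under 1000 bases and 0.047 for the 25 members of 1000 bases or more. Their median change in Pph was -0.45, against -0.33 and -0.31 for the longer classes. In MP8 the medians were -0.28, -0.27 and -0.21 by rising length, and in Tas -0.12, -0.12 and -0.11. These are descriptions over genes, with no test.

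The wider translation machinery was followed with lists of named genes, whose counts stand against 32.2% of all tested genes lower and 30.0% higher in MP8, 25.5% and 26.2% in Tas, and 25.7% and 30.6% in Pph. Nuclear-encoded mitochondrial ribosomal protein genes were also mostly lower. Of 79 tested, 51 were lower and 2 higher in MP8, 41 lower and 10 higher in Tas, and 73 lower and 1 higher in Pph, with medians of -0.24, -0.14 and -0.34. Mrpl28 had 28.1 CPM in MP8, against 45.1 CPM in WT (-0.68 ± 0.07). Mrps24 had 40.2 CPM in Tas, against 69.8 CPM in WT (-0.80 ± 0.09), and Mrpl49 had 78.6 CPM in Tas, against 53.9 CPM in WT (0.54 ± 0.05). Mrpl49 shares its chromosome with Fau, below. Genes encoded by the mitochondrial genome itself were lower for 10 of 15 in MP8, 9 in Tas and 10 in Pph, with medians of -0.37, -0.35 and -0.26. Among them, mt-Rnr2, a ribosomal RNA, had 150 CPM in MP8, 158 CPM in Tas and 124 CPM in Pph, against 345 CPM in WT.

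Ribosomal proteins outside the naming rule included Rps3a1, the ubiquitin-like fusion Fau, and Rack1, a scaffold on the small subunit. All 3 were lower in MP8 and in Pph. In Tas, Rps3a1 was lower (1209.6 CPM, against 1287 CPM in WT, -0.09 ± 0.03) and Fau was higher (403 CPM, against 356 CPM in WT, 0.18 ± 0.04, adjusted p = 0.000711). Fau lies on chromosome 19, where 372 genes with at least 5 CPM had a median of 0.26 in Tas, -0.10 in MP8 and -0.082 in Pph. Ribosomal protein pseudogenes, most of which are processed copies, were tested for 31 of the 322 listed. Of these, 16 were lower and 1 higher in MP8, 8 lower and 0 higher in Tas, and 16 lower and 1 higher in Pph, and the exception in both was Rpl37-ps1 (24.6 CPM in MP8 and 10.6 CPM in Pph, against 4.77 CPM in WT). In Tas the share lower was about that of all tested genes (25.5%). Pseudogene medians were -0.47 in MP8, -0.25 in Tas and -0.46 in Pph, further below 0 than those of the members (-0.24, -0.12 and -0.35). The pseudogenes' reads cannot always be told apart from those of the parent genes.

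Most ribosome biogenesis factors were lower in Pph. Of 80 tested, 66 were lower and 3 higher in Pph, 39 lower and 16 higher in MP8, and 29 lower and 19 higher in Tas, with medians of -0.22, -0.086 and -0.037. The share higher in Tas was near the 26.2% of all tested genes, and the share higher in MP8 was below their 30.0%. Dkc1, the pseudouridine synthase of the H/ACA particles, had 212 CPM in Pph, against 311 CPM in WT (-0.55 ± 0.03, adjusted p = 1.96e-14). Nop10, of the same particles, changed by -0.54 ± 0.06 in Pph. In MP8, the largest change was a rise of Utp20, a factor of small subunit processing (407 CPM, against 285 CPM in WT, 0.52 ± 0.04). In Tas, Noc3l (143 CPM, against 97.9 CPM in WT, 0.55 ± 0.04) and Nolc1 (620 CPM, against 454 CPM in WT, 0.45 ± 0.03) were higher.

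Of 15 genes of RNA polymerase I and its factors, 8 were higher and 4 lower in MP8 (median 0.10), 4 higher and 3 lower in Tas (0.028) and 1 higher and 9 lower in Pph (-0.15). The Tas counts were near the shares of all tested genes (26.2% higher and 25.5% lower), and in MP8 the share lower was near the 32.2% of all genes. Rrn3, the initiation factor that brings the polymerase to rDNA, had 463 CPM in MP8 and 395 CPM in Tas, against 318 CPM in WT (0.54 ± 0.03 and 0.31 ± 0.03). Ubtf, the rDNA-binding factor, had 266 CPM in Pph, against 344 CPM in WT (-0.37 ± 0.03). Translation factors were lower for 24 of 41 in MP8, 17 in Tas and 32 in Pph, and higher for 6, 9 and 4, with medians of -0.11, -0.044 and -0.18. Eif3f, a subunit of the initiation factor eIF3, was lower in all 3 groups (190 CPM in MP8, 200 CPM in Tas and 182 CPM in Pph, against 249 CPM in WT), and Abce1, which splits terminated ribosomes, was higher in Tas (512 CPM, against 355 CPM in WT, 0.53 ± 0.04).

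Other genes with TOP mRNAs did not all follow the ribosomal proteins. Of 16, 10 were lower and 4 higher in MP8 (median -0.16), 4 lower and 8 higher in Tas (0.087) and 14 lower and 2 higher in Pph (-0.30). The share lower in Tas was near the 25.5% of all tested genes. Snhg1, a host gene of small nucleolar RNAs, had 186 CPM in Tas and 94.1 CPM in Pph, against 131 CPM in WT (0.51 ± 0.04 and -0.47 ± 0.04). Vim, the intermediate filament gene, had 152 CPM in MP8, against 63.5 CPM in WT (adjusted p = 1.25e-21). Among 31 regulators of ribosomal protein synthesis, chiefly of the MYC and mTOR networks, 15 were higher and 9 lower in MP8, 9 higher and 5 lower in Tas, and 7 higher and 5 lower in Pph. In Pph both shares were below those of all tested genes (30.6% higher and 25.7% lower). In MP8 the share lower was near the 32.2% of all genes, and in Tas the share higher was near their 26.2%. Ddit4, an inhibitor of mTOR complex 1, had 104 CPM in Pph, against 47.2 CPM in WT (1.14 ± 0.05, adjusted p = 5.74e-17), and Sesn2, an inhibitor of the same complex that senses leucine, had 130 CPM in Pph, against 88.2 CPM in WT (0.56 ± 0.04). Zbtb11, a zinc finger regulator, had 76.9 CPM in MP8 and 61.9 CPM in Pph, against 43.5 CPM in WT (0.82 ± 0.05 and 0.51 ± 0.05).

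**Figure D4:**
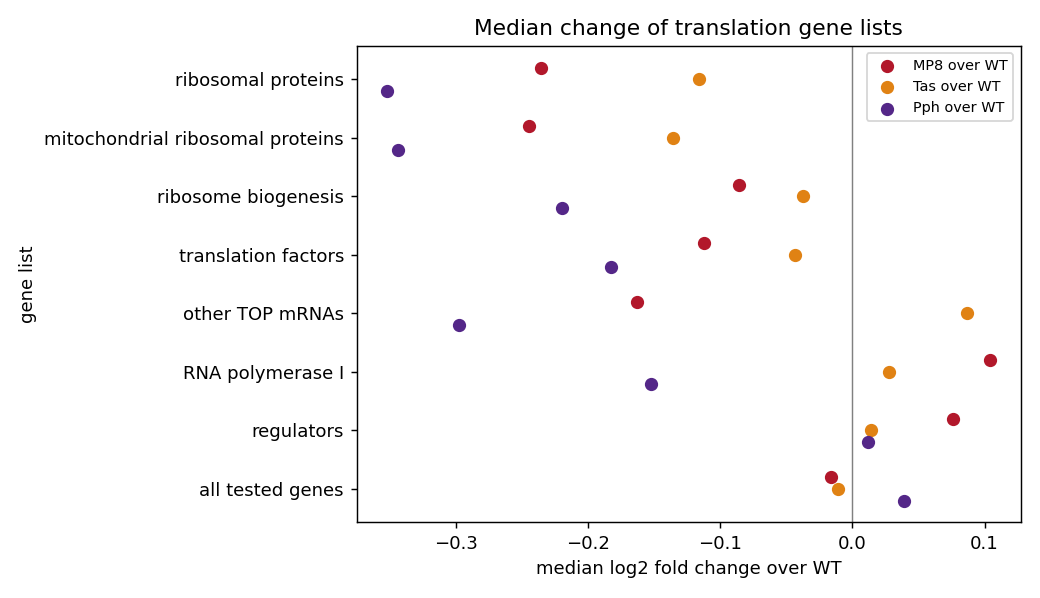
Median log2 fold change over WT of 7 gene lists and of all tested genes (points, 1 per null group). Of the 7 lists shown, the cytosolic and mitochondrial ribosomal protein lists lie furthest left in all 3 null groups, in the order Pph, MP8, Tas. The RNA polymerase I list lies right of 0 in MP8 and left of 0 in Pph. Mitochondrially encoded genes, ribosomal protein pseudogenes and embryonic stem cell markers are not shown.

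Of 5 genes of the p53 pathway (Mdm2, Mdm4, Trp53, Cdkn1a and Ccng1), 4 were higher and 1 lower in MP8, 3 higher and 0 lower in Tas, and 4 higher and 1 lower in Pph. Of all tested genes, 30.0% were higher and 32.2% lower in MP8, 26.2% and 25.5% in Tas, and 30.6% and 25.7% in Pph. Mdm2, the ubiquitin ligase of p53, had 172 CPM in MP8 and 169 CPM in Pph, against 106 CPM in WT (0.70 ± 0.04 and 0.68 ± 0.04). Ccng1, a p53 target, had 452 CPM in MP8, 274 CPM in Tas and 303 CPM in Pph, against 191 CPM in WT (1.25 ± 0.03, 0.52 ± 0.03 and 0.67 ± 0.03). Cdkn1a, the cell cycle inhibitor p21, had 44.5 CPM in MP8, 34.1 CPM in Tas and 35.9 CPM in Pph, against 29.0 CPM in WT, and was called higher in each. Trp53 mRNA was lower in MP8 (332 CPM) and Pph (341 CPM) than in WT (413 CPM), by -0.31 ± 0.03 and -0.28 ± 0.03. The link between these genes and the ribosomal protein mRNAs was not tested.

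Across the 12 libraries, the genes whose log2 CPM followed the mean of the members most closely were Serf2 (Pearson r = 0.993), Sap18b (0.989), Psmb6 (0.986), Slirp (0.983) and Gm7536 (0.980). They were the first 5 of 9542 genes averaging 10 CPM or more. All points share the 4 groups and the scaling of the same libraries, so this likeness is a description.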

How the data were processed

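Total RNA was sequenced in 12 libraries, 3 for each of 4 groups, and each of the 3 deposited tables set 1 null group against WT. Per the file headers, the authors deposited expected counts per gene (estimated, not normalized) and TPM per library. Further deposited columns hold the authors' null over WT ratio, the log2 of that ratio, and raw and adjusted p-values. GRCm39 with RSEM, HISAT2 2.1.0, DESeq 1.26.0 and FastQC are named, per the submitters' processing notes, without a role or order. The WT values of the 3 tables differed by 0, and every library column was matched to its sample.

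The estimates were rounded, then analysed in R 4.3.3 with edgeR 4.0.16, using filterByExpr by group, TMM scaling and a robust quasi-likelihood model of group means over 12 libraries, with 8 residual degrees of freedom. P-values were adjusted by Benjamini-Hochberg over 16840 genes, with a threshold of 0.05. CPM are counts scaled by the effective library size. The log2 TPM alternative used limma 3.58.1 with an offset of 1, and DESeq2 1.42.0 was another alternative. The fit was tested before use on simulated data with the same spread for all genes and few changed genes. That setting does not cover changes as broad as those called here. Without molecular identifiers, intervals cover counting error only. Other scalings, filters, tools and designs, and fits without 1 library, were run as alternatives.

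The members and all gene lists were chosen with earlier results of these data known. Members were named with values by a rule: per comparison with WT the 4 largest called rises and 6 largest called falls, the stalk genes and paralogues, the extremes of TPM, the 2 largest differences per direction between null groups, the 3 members with the largest consistent change, and those not tested or never called. From each list, up to 4 called genes were named from those with the largest change. Chromosomes, neighbours and start regions come from GENCODE M21 and RefSeq on GRCm38, matched by Ensembl ID or symbol, while the counts follow GRCm39 per the submitters' processing notes, so no coordinate of the files was used. Same-numbered libraries of different groups did not deviate together. Rpl10 and Rpl10l were left out, and a member that entered the counts is not reported here by name.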

Additional observations from a re-analysis of the deposited data

Results flagged for a closer look

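Several members moved in opposite directions in 2 null groups relative to WT, with the direct difference between those groups also called by edgeR (adjusted p under 0.05). Rps24 was higher in MP8 and lower in Tas and Pph, with log2 differences of 0.36 (MP8 against Tas) and 0.54 (MP8 against Pph). Rpl15 had the same pattern, with 0.29 (MP8 against Tas) and 0.46 (MP8 against Pph). Rps4l was higher in Tas and lower in MP8 and Pph, with -0.42 (MP8 against Tas) and 0.59 (Tas against Pph). Rpl12 was higher in Tas and lower in Pph, with 0.37 (Tas against Pph). Its Tas value against WT was not called with DESeq2, library totals or upper quartile scaling. Groups of 3 libraries were too small for a test of single outlying libraries.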

How the results depend on the processing

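The median change of the members kept its sign in all 6 comparisons under every alternative run, and all tested genes shifted by at most 0.093 in their median. Counts of members stayed within 1.5 times the reported ones in 154 values and did not in 26. On log2(TPM + 1) with limma, the members higher were 6 in MP8, 6 in Tas and 2 in Pph against WT, and 30 were lower in Tas. On that scale 22 were lower in MP8 against Tas, 24 higher and 6 lower in MP8 against Pph, and 33 higher and 5 lower in Tas against Pph. Library totals gave 4 higher in MP8 against WT, 26 lower in MP8 against Tas and 3 lower in Tas against Pph. In MP8 against Pph, the members lower were 0 with DESeq2, 1 with RLE scaling, 1 with the replicate block and 0 with a fit of 2 groups. In Tas against Pph, 2 were lower with a fit of 2 groups and 2 with upper quartile scaling. Leaving out 1 library gave 1 to 4 members higher and 30 to 59 lower in Tas against WT, 0 to 3 lower in MP8 against Pph and 1 to 2 lower in Tas against Pph.

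Reversals came with log2(TPM + 1), and the cause was not tested: Rpl7l1 (0.034) and Rps27l (0.029) in MP8, Rps20 (0.16) in Tas, Rpl24 (0.079) and Rplp0 (0.024) in Pph, and Rpl19 (-0.060), Rplp0 (-0.091), Rps24 (-0.0059) and Rps25 (-0.0010) in Tas against Pph. Of the values of named members, 2221 kept direction and call, 155 lost the call, 41 gained it and 9 reversed. Replicate numbers did not pair the libraries (correlations of same-numbered deviations from -0.23 to 0.09), and with the replicate block 72 members were lower in MP8, 47 in Tas and 82 in Pph against WT. The counts of members with near-identical pseudogenes may be split among the copies.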
